A study of Mus musculus with 14 samples.

Results

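The members described here are the L3mbtl1 ChIP-seq peaks that lie away from the outer ends of protein-coding genes. A peak belongs to them when no base of it falls within 2000 bp of the start or end coordinate of any protein-coding gene in RefSeq (GRCm38.p6, the assembly of mm10) on chromosomes 1 to 19 and X. Of the 4677 peaks in the deposited list, 715 (15.3%) met this rule and 3962 lay at a coding gene end. The members nearest to the limit lay 2006 bp from an end of Gsr, 2016 bp from one of Rfc1 and 2018 bp from one of St7. Peaks just on the other side lay 1987 bp from an end of Sqle and 1986 bp from one of Vcan. The rule used gene positions only, and neither the peak score nor any expression value.

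The peaks come from ChIP-seq of mouse hippocampus at postnatal day 7 to 8, with 10 µg of an antibody against L3mbtl1 and chromatin cut by micrococcal nuclease. There were 3 wild-type and 3 L3mbtl1-/- samples (strain background C57BL6/129, no treatment), and 1 list of reproducible peaks for all 6 of them, so a peak has 1 score and no value per sample. The RNA-seq libraries came from wild-type C57BL6 hippocampal cells in primary culture, taken at postnatal day 0 to 1 and grown for 14 days in vitro. The CTRL group received 0.1% DMSO for 15 h (n = 4) and the PTX group 100 µM picrotoxin for 15 h (n = 4), a blocker of the GABA-A receptors that carry fast inhibition in the brain. The peaks and the transcripts were thus measured in different material: whole tissue without treatment, and treated cultures.

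L3mbtl1 is a chromatin reader. Its MBT domains bind lysines with few methyl groups on histones, among them monomethylated and dimethylated lysine of histone H4, and the protein is known for compacting nucleosomes and for acting as a repressor in reporter assays. Many neuronal genes have more than 1 start site, and a start inside the span of the longest transcript is far from the coordinates that a gene table lists as the gene's ends. Some starts of this kind lie in CpG islands. These are stretches in which the CG dinucleotide has not been depleted as it has in most of the mouse genome. Long noncoding RNAs (lncRNAs), microRNAs (miRNAs) and transfer RNAs (tRNAs) also have starts of their own that such a rule does not cover.

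The sequences below show what the start regions at these peaks look like. Each is the RefSeq window (GRCm38.p6) from 250 bases before to 50 bases after an annotated start, read 5′ to 3′ on the strand of the gene, with each CG dinucleotide in capitals. The first 4 belong to starts inside coding genes with a peak within 500 bp. The counts of these 4 genes changed with picrotoxin, but counts are per gene and cannot be assigned to a start. The fifth window belongs to a lncRNA start under a peak, and the last to a start of the same gene as the second that had no peak near it.
Egr2, chr10:67537316-67537615, plus strand: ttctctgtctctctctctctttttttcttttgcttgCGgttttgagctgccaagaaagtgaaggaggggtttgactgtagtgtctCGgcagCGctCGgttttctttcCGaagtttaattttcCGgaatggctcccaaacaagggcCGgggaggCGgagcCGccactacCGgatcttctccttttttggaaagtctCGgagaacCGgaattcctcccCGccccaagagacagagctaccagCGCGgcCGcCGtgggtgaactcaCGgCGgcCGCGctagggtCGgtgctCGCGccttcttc
Sgk1, chr10:21994416-21994715, plus strand: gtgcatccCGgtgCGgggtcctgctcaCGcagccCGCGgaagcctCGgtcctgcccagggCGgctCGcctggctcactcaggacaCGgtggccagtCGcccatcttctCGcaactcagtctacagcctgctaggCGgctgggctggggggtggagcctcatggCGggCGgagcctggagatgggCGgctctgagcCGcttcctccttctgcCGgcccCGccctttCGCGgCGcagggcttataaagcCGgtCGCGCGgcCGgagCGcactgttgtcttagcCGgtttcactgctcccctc
Rfx3, chr19:28011117-28011416, minus strand: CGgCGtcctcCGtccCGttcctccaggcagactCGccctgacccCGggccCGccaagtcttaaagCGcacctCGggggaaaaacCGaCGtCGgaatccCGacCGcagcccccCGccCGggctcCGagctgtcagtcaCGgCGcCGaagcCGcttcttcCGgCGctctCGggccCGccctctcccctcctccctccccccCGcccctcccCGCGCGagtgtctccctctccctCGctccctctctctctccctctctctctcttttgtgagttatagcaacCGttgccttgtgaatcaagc
Cacna1d, chr14:30353437-30353736, minus strand: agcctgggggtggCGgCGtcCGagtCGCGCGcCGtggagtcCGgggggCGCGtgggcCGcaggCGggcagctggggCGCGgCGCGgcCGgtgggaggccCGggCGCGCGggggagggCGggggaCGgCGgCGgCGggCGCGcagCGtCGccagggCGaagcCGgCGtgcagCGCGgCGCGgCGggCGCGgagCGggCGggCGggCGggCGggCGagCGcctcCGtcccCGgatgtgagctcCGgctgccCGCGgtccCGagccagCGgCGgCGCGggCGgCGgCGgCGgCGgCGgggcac
1700086L19Rik, chr12:74284026-74284325, plus strand: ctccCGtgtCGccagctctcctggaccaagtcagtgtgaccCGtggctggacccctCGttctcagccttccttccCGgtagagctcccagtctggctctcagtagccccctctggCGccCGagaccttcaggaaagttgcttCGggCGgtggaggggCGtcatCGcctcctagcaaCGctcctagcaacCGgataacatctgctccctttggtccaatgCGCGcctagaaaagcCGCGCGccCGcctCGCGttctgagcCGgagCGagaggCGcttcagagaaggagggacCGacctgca
Sgk1 internal start without a peak, chr10:21978422-21978721, plus strand: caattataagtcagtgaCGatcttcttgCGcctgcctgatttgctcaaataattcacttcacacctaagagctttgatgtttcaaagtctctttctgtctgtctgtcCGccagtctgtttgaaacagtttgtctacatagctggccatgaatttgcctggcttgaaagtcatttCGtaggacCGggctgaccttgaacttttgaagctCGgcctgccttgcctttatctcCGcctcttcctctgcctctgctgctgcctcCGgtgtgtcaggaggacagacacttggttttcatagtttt
The Egr2 window held 24 CG dinucleotides, the Sgk1 window 28, the Rfx3 window 31, the Cacna1d window 63 and the 1700086L19Rik window 25. The Sgk1 start without a peak, 15274 bp from the nearest peak, held 8. It was chosen as the farthest from any peak, and the first printed Sgk1 start as the closest to one. Another internal Sgk1 start within 500 bp of the same peak, at position 21993890, had 46.3% G and C bases, against 47% at the start without a peak. Its CpG ratio, observed over expected from base composition, was 0.636 against 0.488. The Egr2, first printed Sgk1 and 1700086L19Rik starts lay under a peak, the Rfx3 start 153 bp and the Cacna1d start 237 bp from one.

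Some of the mature miRNAs encoded within 2000 bp of a peak are printed next for reference only, since no mature miRNA was measured. They are given 5′ to 3′ from RefSeq with the seed, bases 2 to 8, in capitals, and the first pair shares a seed, as do the pair of miR-17 and miR-20a and the pair of miR-19a and miR-19b.
miR-132-3p: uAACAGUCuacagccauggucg
miR-212-3p: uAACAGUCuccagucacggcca
let-7i-5p: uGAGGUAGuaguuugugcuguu
miR-17-5p: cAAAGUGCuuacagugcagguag
miR-20a-5p: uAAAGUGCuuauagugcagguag
miR-19a-3p: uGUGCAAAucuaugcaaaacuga
miR-19b-3p: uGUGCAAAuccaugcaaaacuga
miR-92a-3p: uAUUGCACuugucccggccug

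Most peaks away from coding gene ends were still inside a coding gene. Of the 715, 537 (75.1%) overlapped the span of a protein-coding gene, 100 (14.0%) lay outside coding genes but within 2000 bp of an end of a noncoding gene or pseudogene, 20 (2.80%) lay inside a noncoding gene and 58 (8.11%) lay outside all genes of the table. Coding genes cover 38.7% of the bases outside the excluded windows, so the share of peaks inside them was 1.94 times that share. The table holds no exons, so peaks were not placed in exons, introns or UTRs. Peaks of 1 list are not replicates of each other, and the shares and medians of peaks are therefore given as descriptions without tests.

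Annotated start sites took a far larger part than their area. RefSeq windows with strand gave 32619 coding and lncRNA starts on all chromosomes used except chromosome 18, where none was used, which leaves 687 of the 715 peaks for this comparison. Of these, 252 (36.7%) lay within 500 bp of an annotated start of a protein-coding gene. All 252 lay inside the gene that the start belongs to, which the rule fixes in advance. The starts used lie within their genes, and no member lies within 2000 bp of a coding gene end. Counted by peak midpoints, 190 of 687 (27.7%) were within 500 bp of a coding start, in 0.120% of those bases. A lncRNA start was within 500 bp of 6.26% of these midpoints, in 0.369% of those bases. With chromosome 18 included, a tRNA gene was within 500 bp of 20 of 715 midpoints (2.80%), in 0.0132% of the bases. When each peak was counted once, in the order given, 252 were at a coding start, 56 at a lncRNA start, 22 at a tRNA gene and 37 at the end of another noncoding gene. A further 223 lay elsewhere inside a coding gene, 97 elsewhere outside one and 28 on chromosome 18.

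**Figure D1:**
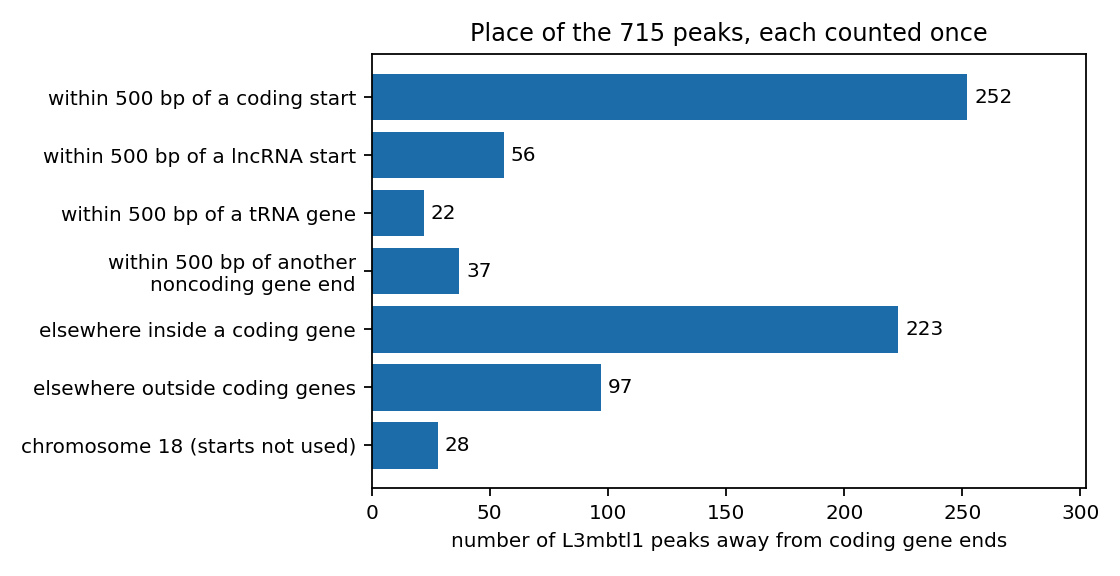
Number of L3mbtl1 peaks away from coding gene ends (horizontal axis) in each class of place, every peak counted once. Coding starts held 252 of the 715 peaks and positions inside coding genes with no annotated start or noncoding end nearby held 223.

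Peaks away from coding gene ends were of similar size to the rest. Their median width was 683 bp (quartiles 391 and 1114, highest 3990) against 760 bp at coding gene ends. The score is the authors' own value per peak, in a unit that the sources used here do not define. Its median was 10.2 (range 8.17 to 46.0) against 10.9 at coding gene ends. Among peaks at or above the median score of the whole list 13.0% were away from coding gene ends, and below it 17.6%. The median distance to the nearest coding gene end was 8364 bp, with an upper quartile of 31422 bp and the farthest at 1392105 bp. Another peak of the list lay within 1000 bp of 36.2% of them, close to the 34.8% of the other peaks, and within 10000 bp of 45.0% against 39.2%. By chromosome their share of all peaks ran from 10.4% on chromosome 16 (14 of 134) to 19.2% on the X chromosome (5 of 26).

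The highest scores went to an imprinted locus, noncoding genes and places inside coding genes. The peak of highest score (46.0) was also the widest (3990 bp), at chr2:174295461-174299450 inside Gnas, an imprinted gene for a G protein subunit, and at an end of its antisense RNA Gnasas1. The second (38.5, chr6:117879249-117880928) covered the lncRNA genes Gm38882 and Gm38883, with the zinc finger gene Zfp239 nearest. The third (31.3, chr3:96501402-96503213) lay over tRNA genes, with Hjv, the hemojuvelin gene of iron metabolism, as the nearest coding gene. Further peaks among the first 10 were inside Ash2l (27.2), a subunit of histone H3 methyltransferase complexes, Nfia (26.0), a transcription factor of glia and neurons, and Nr3c1 (25.8), the glucocorticoid receptor. The eighth (24.5, 2737 bp wide) covered the start of the lncRNA 1700086L19Rik, 11067 bp from the gene Dbpht2. The ninth (24.5) covered the miRNA gene Mirlet7i, with Mon2 as the nearest coding gene, and the tenth (24.3) was outside all genes, nearest to Foxj2. Beside Gnas, the widest were in Tenm3 (3008 bp), near Ifne (2849 bp), at a start in Cd47 (2777 bp) and near Ogfrl1 (2740 bp).

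Some genes held several of these peaks close together. Of 416 protein-coding genes that overlapped at least 1, 320 held 1, 75 held 2 and 21 held 3 or more. Nfia held 6, 4 of them within 5929 bp, and Ptch1, the receptor for Hedgehog ligands, held 5 within 4789 bp. Mxi1, a Myc antagonist, also held 5, and Tenm3 and Nrg1 held 4 each. Peaks were grouped when no more than 10000 bp apart, and 21 groups had 3 or more. Groups of 3 inside Aff1, Tmpo, Jade1, Elavl2, Hivep2, Hif1a and Rbpj spanned between 1529 and 4330 bp. The peaks farthest from a coding gene end were at the other extreme. On chromosome 8, 1 peak lay 1392105 bp from any, by the lncRNA 1700019L22Rik but more than 500 bp from its ends. In Dpp10, 2 peaks lay 713122 and 713553 bp inside the gene, 51 and 132 bp from an annotated start of it. Others were deep inside Tenm3 (617801 bp) and Opcml (521332 bp).

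Peaks at starts inside coding genes lay around the start much as peaks at the outer ends did. Of the 252 within 500 bp of a start, 114 covered the start, 81 lay wholly downstream, on the side of the transcript, and 57 wholly upstream. Their midpoints had a median of 118 bp downstream. Of 3828 peaks at coding gene ends on the same chromosomes, 2752 (71.9%) lay within 500 bp of an annotated start, 1312 of them across it, with midpoints at a median of 108.75 bp downstream. The highest scores at starts inside genes were at Fancc, a Fanconi anaemia gene (23.7, chr13:63431452-63432181), Rfc1, the large subunit of replication factor C (22.9, chr5:65335354-65336601), Mxi1 (22.7), Ttll9 (22.7), Phip (22.4) and Aff1 (21.8). These peaks covered the start, except at Ttll9, where the peak began 14 bp downstream.

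**Figure D2:**
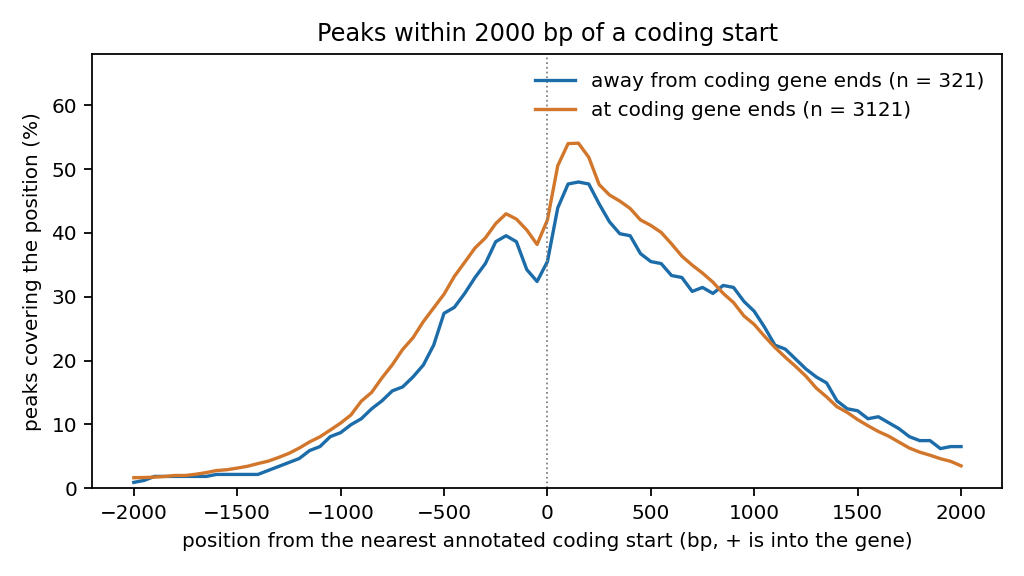
Percent of peaks that cover each position from -2000 to 2000 bp around the nearest annotated coding start (horizontal axis, positive into the gene), for the 321 peaks away from coding gene ends and the 3121 at coding gene ends that lie within 2000 bp of a start. Both curves are highest downstream of the start, have a lower second rise upstream and a dip between them, lowest 50 bp upstream of the start (32.4% of the peaks away from coding gene ends and 38.2% of those at ends).

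Seen from the starts, 271 of 3071 annotated coding starts more than 2000 bp from any coding gene end (8.82%, in 215 genes) had one of these peaks within 500 bp. At coding starts nearer to a gene end, 17.2% of 17974 had a peak, counting any peak of the list. By that wider count, 2780 of the 3071 starts had no peak within 500 bp. Of the 271, 125 were covered by a peak, 74 had a peak only downstream, 56 only upstream and 16 had peaks on both sides with none across the start.

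Starts with a peak were rich in CG dinucleotides, whether they lay inside a gene or near its end. The 300 bp windows of the 271 internal starts with a peak had a median of 65.3% G and C bases, against 52.7% at 2780 internal starts without one. Their median CpG ratio, observed over expected from base composition, was 0.853 (quartiles 0.734 and 0.966) against 0.316 (quartiles 0.183 and 0.586). A ratio of at least 0.6, the usual limit for a CpG island, was reached by 89.7% of internal starts with a peak and 24.2% of those without. Coding starts near a gene end with a peak had medians of 64.3% and 0.883. lncRNA starts away from coding gene ends showed the widest gap, with 61.3% and 0.775 at 82 starts with a peak and 47.3% and 0.215 at 9529 without. The quartile ranges of the CpG ratio with and without a peak did not overlap at internal coding starts or at lncRNA starts.

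**Figure D3:**
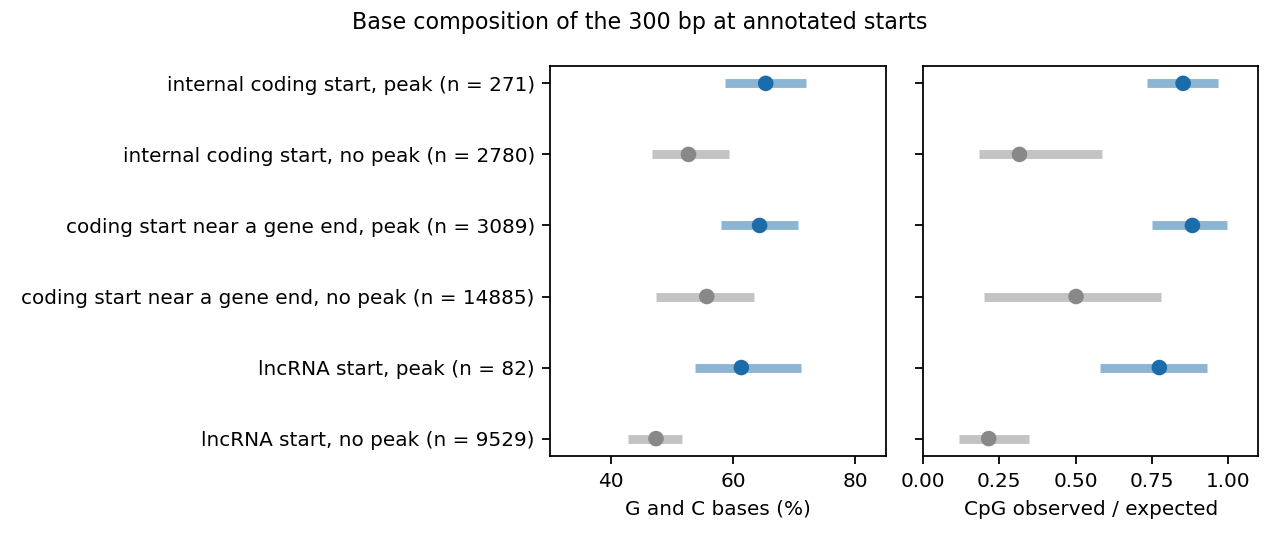
Base composition of the 300 bp at annotated starts with and without an L3mbtl1 peak: percent G and C bases (left) and CpG observed over expected (right). Points are medians, bars run from the lower to the upper quartile, and n is the number of starts. Starts with a peak, shown in blue, lie to the right of those without in each of the 3 kinds of start.

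Short motifs were searched as exact letters on both strands of the same windows, each on its own, so that matches of different motifs can overlap. GGGCGG, the GC box that Sp factors bind, was in 73.8% of internal starts with a peak, 32.0% of those without and 35.9% of all coding and lncRNA starts. CCGGAAG, an ETS motif, was in 11.8%, 4.82% and 8.92%, and the palindrome of NRF1 in 2.58%, 0.324% and 0.978%. The core promoter element TATAAA went the other way, with 3.69%, 12.0% and 13.7%. The activity-linked motifs TGANTCA (AP-1) and TGACGTCA (cAMP response element) were in 4.80% and 1.85% of internal starts with a peak and in 8.63% and 1.40% of those without. CACGTG (E-box) was in 8.86% and 5.29%, part of the CTCF motif in 3.32% and 2.34%, and the control CTGCAG in 17.3% and 20.5%. The windows with and without a peak differ in CG content as given above, and its part in the motif shares was not tested.

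Noncoding genes came next. A noncoding gene end or pseudogene end lay within 2000 bp of 28.0% of peak midpoints, in 5.96% of the bases outside the excluded windows. By type, 159 of the 715 peaks (22.2%) were within 2000 bp of a lncRNA end, 28 of a tRNA, 13 of a miRNA, 9 of a pseudogene, 6 of a small nuclear RNA and 3 of a small nucleolar RNA. The lncRNAs included Oip5os1, also known as Cyrano, with a peak over its start (12.0, chr2:119594175-119595832), Dleu2, the host transcript of a miR-15 and miR-16 cluster, with peaks of score 22.6 and 19.3 at its start, and Chaserr, next to Chd2, with 3 peaks at its end.

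Transfer RNA genes are transcribed by RNA polymerase III and often lie in clusters. Within 500 bp of a tRNA gene were 27 of the 715 peaks (3.78%), 17 of them over one, against 13 of the 3962 peaks at coding gene ends (0.328%). They were spread over 9 chromosomes, with 12 of 27 on chromosome 13, where mouse tRNA genes lie among histone genes. Of 408 tRNA genes placed, 341 lay more than 2000 bp from coding gene ends, so the rule itself puts most tRNA genes on the side of these peaks. Of the 341, 36 (10.6%) had such a peak within 500 bp. Counting every peak of the list, 51 of the 408 had one within 500 bp. None of the 27 was also within 500 bp of an annotated coding start. After the peak over tRNA genes on chromosome 3 (31.3), the highest were on chromosome 13 at 21326724 to 21327710 (19.5) and on chromosome 11 at 95858143 to 95858688 (16.4). tRNA genes have near-identical copies, and how the authors treated reads with several positions in the ChIP-seq is not given in the sources used here.

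Among the miRNA genes, Mirlet7i lay wholly under its peak (score 24.5, rank 71 of the list), and a second peak (9.90) lay 453 bp away. A peak of score 15.6 lay 987 bp from Mir124a-3, a gene of the neuronal miRNA miR-124. A peak at chr14:115041991-115042713 (13.5) lay 958 bp from Mir17, the first gene of the cluster that continues with Mir18, Mir19a, Mir20a, Mir19b-1 and Mir92-1, the last of them 1714 bp away. A peak at chr11:75172508-75173203 (10.4) lay 185 bp from Mir212 and 479 bp from Mir132, the pair with the shared seed above. In Epc1, 3 peaks surrounded Mir1893, 2 of them overlapping it.

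The RNA-seq libraries held between 14524916 and 19498189 counts in genes. With edgeR's quasi-likelihood test and Benjamini-Hochberg adjustment, 6248 of 15959 tested genes passed an adjusted p of 0.05, which is 39.2%: 19% were higher in PTX (rose) and 20.1% lower (fell). Levels are in CPM, counts scaled to the size of the library, given in the order of libraries 1 to 4, and a difference is the log2 ratio of PTX over CTRL with its standard error (SE). In these cultures, fewer cells of a type and less RNA per cell cannot be told apart. Markers of the cell types moved too. The summed CPM of 7 astrocyte markers was 5856 to 8053 in CTRL and 4316 to 6005 in PTX, with 3 of 7 lower. That of 7 excitatory neuron markers was 457 to 588 in CTRL and 649 to 809 in PTX, with 1 higher and 5 lower, and that of 7 inhibitory neuron markers 523 to 683 in CTRL and 913 to 1027 in PTX, with 3 higher and 2 lower. The 7 microglia markers summed to 14.2 to 73.7 in CTRL and 17.9 to 124.7 in PTX, the 7 oligodendrocyte lineage markers to 203 to 414 and 220 to 475.5, the 6 endothelial markers to 24.5 to 55.9 and 27.8 to 47.5, and the 6 meningeal fibroblast markers to 140.3 to 298 and 102 to 255. In that order 6, 6, 3 and 6 of these genes were tested, and 1 endothelial marker passed. A marker at 0 in a library occurred only for 1 endothelial gene, and the part of cell makeup in the results below was not tested. L3mbtl1 held none of these peaks, and its transcript fell (9.82, 8.87, 10.1 and 11.1 CPM in CTRL and 2.35, 5.61, 1.50 and 2.18 CPM in PTX; log2 difference -1.76, SE 0.34, adjusted p = 0.00249).

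Genes that hold a peak away from coding gene ends were called more often than tested genes as a whole, in both directions. Of 416 such host genes, 404 were tested, 101 rose and 117 fell, together 54.0% against the 39.2% of all tested genes. Of the 13862 protein-coding genes tested, 41.3% were called. Changes of at least 2-fold were found in 35 that rose (8.66%, all tested genes 6.75%) and 26 that fell (6.44%, all tested genes 5.13%). The median difference of the host genes was -0.05 against -0.03 over all tested genes. Host genes were also longer and more abundant than most. Their median length was 76808.5 bp against 17329 bp for all coding genes. The rule itself selects for length, because a host gene must reach more than 2000 bp beyond its peak on each side. The median of total counts of host genes was 6396.5 against 3425.5 for tested coding genes and 2659 for all tested genes. The part of length and of abundance in the count of calls was not tested. The groups CTRL and PTX did not overlap for 212 of the 404 host genes (52.5%), beside 37.9% of all tested genes.

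Across kinds of gene the share called ran from 43.8% to 57.7%. Host genes with a peak within 500 bp of an annotated start of their own were called in 109 of 215 cases (50.7%, 48 rose and 61 fell), and host genes with peaks elsewhere in 109 of 189 (57.7%, 53 rose and 56 fell). Genes with a start more than 2000 bp inside them and no such peak there were called in 45.7% of 1589, and genes with peaks only at their ends in 43.8% of 3545. Of the latter, 23.5% rose and 20.3% fell. Of 106 host genes that also had a peak at an end, 20 rose (18.9%) and 37 fell (34.9%). Of 298 without one, 81 rose (27.2%) and 80 fell (26.8%). Their shares called were 53.8% and 54.0%. Over all tested genes 39.2% were called, with 19% higher and 20.1% lower in PTX. Coding genes nearest to the 178 peaks outside coding genes were called in 55 of 120 tested cases (45.8%, 27 rose and 28 fell). The host genes counted as having peaks elsewhere include those on chromosome 18, whose peaks were not set against starts. These sets of genes were not tested against each other.

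**Figure D4:**
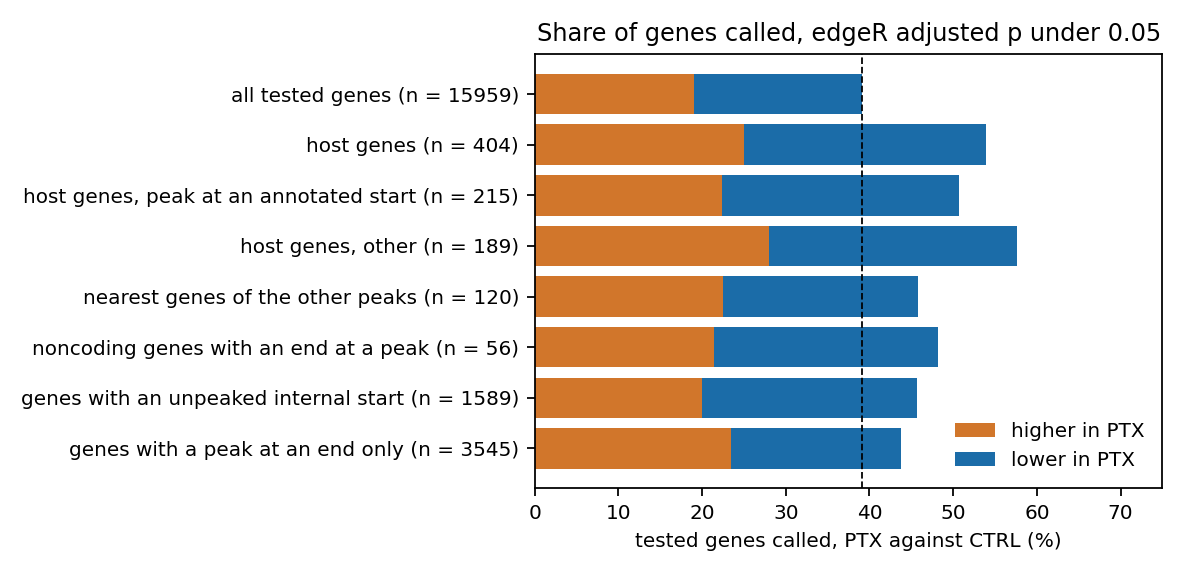
Percent of tested genes called at an edgeR adjusted p under 0.05 (horizontal axis), split into genes higher (orange) and lower (blue) in PTX, for 8 sets of genes with the number tested. The dashed line marks all tested genes at 39.2%, and the host genes stand at 54.0%.

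The host genes described next were chosen among those called with a mean of at least 1 CPM and with groups that do not overlap. The 8 largest such rises were 2.27 to 3.47 on the log2 scale and included activity-response genes. Nr4a2, an orphan nuclear receptor of the immediate early class, stood at 6.29, 10.4, 4.21 and 4.95 CPM in CTRL and 48.4, 76.5, 87.2 and 73.1 CPM in PTX (log2 difference 3.47, SE 0.29, adjusted p = 1.36e-05). It held a peak of score 19.3 and another of 9.14, 7213 and 7071 bp from its nearer end. Egr2, a zinc finger factor of the same class, stood at 5.71, 5.76, 3.81 and 3.13 CPM in CTRL and 28.8, 24.6, 34.6 and 22.8 CPM in PTX (log2 difference 2.60, SE 0.22, adjusted p = 1.51e-05). Its 2 peaks (17.7 and 13.9) lay on and 116 bp from the internal start printed above, 3097 bp inside the gene. Sgk1, a kinase induced by glucocorticoids and by neuronal activity, stood at 52.4, 48.4, 44.1 and 49.7 CPM in CTRL and 288, 267, 289 and 245 CPM in PTX (log2 difference 2.49, SE 0.09, adjusted p = 4.16e-07). Its start under the peak is 112482 bp inside the gene's annotated span.

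Chromatin genes were among the rises as well. Sfmbt2, itself an MBT-domain protein and an imprinted gene, stood at 9.59, 8.47, 10.1 and 9.91 CPM in CTRL and 56.8, 25.6, 51.0 and 49.1 CPM in PTX (log2 difference 2.27, SE 0.22, adjusted p = 4.01e-05), with 2 peaks 43 and 454 bp from a start. Its PTX library 2 was the lowest of the 4. Baz1a, a subunit of ISWI chromatin remodelling complexes, stood at 5.59, 4.97, 5.57 and 5.08 CPM in CTRL and 38.6, 27.6, 36.1 and 34.1 CPM in PTX (log2 difference 2.69, SE 0.13, adjusted p = 6.98e-07), and its stronger peak had a score of 20.2. Ism1, which encodes the secreted protein isthmin 1, stood at 9.71, 8.59, 8.63 and 6.58 CPM in CTRL and 78.1, 71.1, 119 and 74.3 CPM in PTX (log2 difference 3.36, SE 0.19, adjusted p = 2.35e-06). The other large rises were in genes of low level in CTRL: Tex14, a gene known for intercellular bridges of germ cells, at 0.882, 0.395, 0.953 and 0.521 CPM in CTRL and 9.28, 2.42, 4.77 and 5.26 CPM in PTX (log2 difference 2.96, SE 0.44, adjusted p = 0.000514), and Sdcbp2, a syntenin, at 0.529, 0.847, 0.953 and 0.912 CPM in CTRL and 8.71, 3.13, 5.24 and 3.75 CPM in PTX (log2 difference 2.68, SE 0.36, adjusted p = 0.000291). Both Tex14 peaks lay at genes of the small nucleolar RNA U3, Rnu3b4 and Rnu3b2.

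The 8 largest falls were between 1.44 and 2.09 in size on the log2 scale. Calcium channel subunits were among them. Cacna1d, the pore of an L-type channel, stood at 41.6, 30.1, 39.4 and 44.8 CPM in CTRL and 12.5, 13.3, 12.7 and 17.8 CPM in PTX (log2 difference -1.46, SE 0.16, adjusted p = 6.72e-05), with a peak of score 14.8 at a start 137670 bp inside the gene, and Cacnb3, an auxiliary subunit, at 49.0, 47.4, 54.9 and 44.1 CPM in CTRL and 17.0, 17.2, 14.6 and 16.3 CPM in PTX (log2 difference -1.58, SE 0.09, adjusted p = 2.65e-06), with a peak 113 bp from a start. Transcription factors followed. Rfx3, a regulator of cilia genes, stood at 461, 324, 406 and 367 CPM in CTRL and 116, 96.0, 110.0 and 128 CPM in PTX (log2 difference -1.78, SE 0.13, adjusted p = 6.8e-06), with the peak near the start printed above. Bcl11a, a zinc finger factor of cortical and hippocampal neurons, stood at 77.7, 74.7, 81.4 and 80.6 CPM in CTRL and 25.1, 22.1, 24.8 and 23.5 CPM in PTX (log2 difference -1.71, SE 0.08, adjusted p = 5.23e-07).

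The remaining falls concerned signalling and vesicle genes. Slc30a3, the zinc transporter of synaptic vesicles, stood at 2.88, 7.46, 5.72 and 4.37 CPM in CTRL and 0.953, 1.36, 1.36 and 1.09 CPM in PTX (log2 difference -2.09, SE 0.31, adjusted p = 0.000462). Socs2, an inhibitor of cytokine signalling, stood at 30.2, 23.4, 25.6 and 21.7 CPM in CTRL and 7.37, 8.39, 6.81 and 7.99 CPM in PTX (log2 difference -1.71, SE 0.13, adjusted p = 8.38e-06). Pik3ip1, a negative regulator of PI3 kinase, stood at 48.3, 70.3, 74.0 and 77.9 CPM in CTRL and 12.0, 33.7, 21.4 and 22.4 CPM in PTX (log2 difference -1.59, SE 0.27, adjusted p = 0.00109), with library 1 lowest in both groups. Mast3, a kinase, stood at 20.9, 19.7, 23.5 and 20.5 CPM in CTRL and 8.58, 7.80, 6.33 and 8.29 CPM in PTX (log2 difference -1.44, SE 0.12, adjusted p = 1.52e-05), and its peak lay over the miRNA gene Mir7240 inside it.

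**Figure D5:**
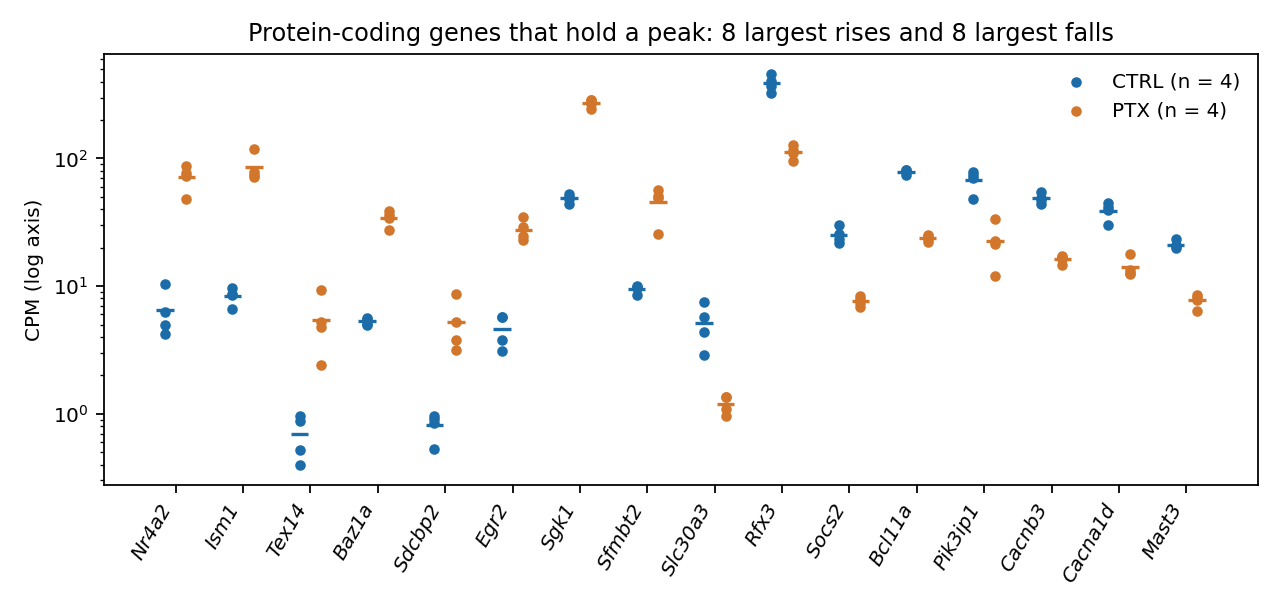
CPM on a log axis in each CTRL (blue, n = 4) and PTX (orange, n = 4) library for the 8 host genes with the largest rises and the 8 with the largest falls. Points are libraries and short lines the group means. The 16 genes were chosen among those whose groups do not overlap, and they differ in level and in the spread between libraries.

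For the 178 peaks outside coding genes, the nearest coding gene was taken as a neighbour, which is a statement on position only. Those described were chosen by the same criteria as the host genes. Fos, an immediate early gene whose product forms AP-1, lay nearest to a peak at chr12:85486091-85487405 (score 9.14), 8817 bp from the gene. It stood at 16.9, 37.1, 25.7 and 19.4 CPM in CTRL and 319, 283, 375 and 321 CPM in PTX (log2 difference 3.72, SE 0.23, adjusted p = 3.26e-06), the largest rise of this set. Zfp184 stood at 5.41, 6.27, 5.07 and 5.86 CPM in CTRL and 27.5, 12.5, 27.9 and 20.0 CPM in PTX (log2 difference 1.97, SE 0.24, adjusted p = 0.000149) and the histone gene H2bc11 at 1.59, 2.20, 2.56 and 1.69 CPM in CTRL and 4.96, 5.61, 6.33 and 3.99 CPM in PTX (log2 difference 1.38, SE 0.22, adjusted p = 0.000884). The peaks next to both lay at tRNA genes of chromosome 13. Chd2, a chromatin remodeller, stood at 130.3, 118, 109 and 136 CPM in CTRL and 305, 188, 317 and 280.3 CPM in PTX (log2 difference 1.15, SE 0.16, adjusted p = 0.000319). Its peaks were those at the end of Chaserr, a lncRNA known to limit Chd2 expression, which was not called (6.65, 5.42, 5.57 and 6.78 CPM in CTRL and 7.82, 5.20, 7.97 and 8.35 CPM in PTX; log2 difference 0.27, SE 0.18, adjusted p = 0.27; Chaserr was named after its values were seen). Zswim4 rose as well (11.3, 13.6, 10.4 and 9.38 CPM in CTRL and 29.0, 23.1, 23.2 and 24.4 CPM in PTX; log2 difference 1.16, SE 0.13, adjusted p = 0.000102).

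Falls near peaks outside coding genes were led by a coding and a noncoding gene side by side. Dbpht2 stood at 271, 219, 236 and 194 CPM in CTRL and 62.2, 51.9, 62.5 and 58.6 CPM in PTX (log2 difference -1.96, SE 0.12, adjusted p = 2.65e-06). The lncRNA 1700086L19Rik, whose start window is printed above and lies under the peak of rank 8 among these, stood at 118, 99.3, 98.6 and 76.4 CPM in CTRL and 28.7, 23.0, 28.5 and 25.6 CPM in PTX (log2 difference -1.88, SE 0.14, adjusted p = 6.46e-06). The spans of the 2 genes do not overlap, with 1700086L19Rik at 74284276 to 74295950 and Dbpht2 at 74297474 to 74300468 of chromosome 12. Plxnc1, a semaphorin receptor, stood at 208, 125, 179.9 and 150.0 CPM in CTRL and 54.3, 57.7, 48.1 and 55.7 CPM in PTX (log2 difference -1.61, SE 0.15, adjusted p = 2.58e-05), 112303 bp from its peak. Ssbp2 (134, 119, 127 and 111 CPM in CTRL and 53.8, 49.8, 55.5 and 55.0 CPM in PTX; log2 difference -1.19, SE 0.08, adjusted p = 5.95e-06), Hlf, a circadian bZIP factor (20.8, 14.5, 23.0 and 18.1 CPM in CTRL and 12.7, 4.78, 6.61 and 6.59 CPM in PTX; log2 difference -1.31, SE 0.28, adjusted p = 0.00413), and Zfp239 (21.7, 21.2, 22.2 and 18.6 CPM in CTRL and 10.9, 10.6, 9.06 and 8.11 CPM in PTX; log2 difference -1.11, SE 0.12, adjusted p = 7.75e-05) fell as well.

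Of 229 noncoding genes with an end within 2000 bp of these peaks, 100 were in the count tables and 56 were tested. Among them 12 rose and 15 fell (48.2%, beside 39.2% of all tested genes). Of the lncRNAs, 8 rose and 14 fell of 46. The libraries were not made for small RNAs, so counts at a miRNA gene measure reads over its locus and not the mature miRNA. Mir132 stood at 0.0588, 0.226, 0.151 and 0.00 CPM in CTRL and 2.92, 2.78, 2.72 and 2.06 CPM in PTX (log2 difference 4.45, SE 0.46, adjusted p = 5.63e-05), with 8 counts in all CTRL libraries together and 167 in all PTX libraries. Mir212 stood at 0.118, 0.00, 0.100 and 0.0652 CPM in CTRL and 1.08, 0.945, 0.885 and 0.968 CPM in PTX (log2 difference 3.64, SE 0.47, adjusted p = 0.000214), with 5 counts and 62 counts. Both are known as targets of the activity-dependent factor CREB. Their fitted ratios depend on few CTRL counts.

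Of the 5 noncoding genes with the highest CTRL levels, 3 fell, 1 rose and 1 was not called. Over all tested genes 19% rose and 20.1% fell, and 5 genes are too few to read as a share. 1700086L19Rik was among those that fell, as was Oip5os1, which stood at 918, 595, 646 and 651 CPM in CTRL and 477, 341, 350.5 and 382 CPM in PTX (log2 difference -0.85, SE 0.16, adjusted p = 0.00196), highest in library 1 of both groups. 1500011B03Rik stood at 44.6, 54.2, 49.7 and 41.1 CPM in CTRL and 23.7, 31.2, 22.3 and 20.5 CPM in PTX (log2 difference -0.95, SE 0.14, adjusted p = 0.000459). Dleu2 was not called (34.0, 33.7, 34.3 and 41.8 CPM in CTRL and 33.2, 33.8, 40.3 and 46.4 CPM in PTX; log2 difference 0.11, SE 0.13, adjusted p = 0.553), and its groups overlapped. The small nuclear RNA gene Gm25360 stood at 22.2, 36.4, 26.2 and 34.0 CPM in CTRL and 37.0, 49.9, 51.6 and 40.8 CPM in PTX (log2 difference 0.60, SE 0.17, adjusted p = 0.0169). That call was lost without CTRL library 3, with an adjusted p of up to 0.0551 over the alternatives, and such genes have near-identical copies. Of low level were Gm26519 (0.118, 0.113, 0.100 and 0.0652 CPM in CTRL and 0.636, 1.12, 0.749 and 0.847 CPM in PTX; log2 difference 2.99, SE 0.38, adjusted p = 0.000198) and Gm16796 (0.706, 0.169, 0.201 and 0.391 CPM in CTRL and 2.92, 1.06, 1.63 and 1.15 CPM in PTX; log2 difference 2.21, SE 0.50, adjusted p = 0.00592), which rose. Gnasas1, at the peak of highest score, rose as well (4.65, 3.11, 3.26 and 3.32 CPM in CTRL and 7.31, 5.14, 7.42 and 5.51 CPM in PTX; log2 difference 0.83, SE 0.20, adjusted p = 0.00881), and was named after its values were seen. Counts of Gnasas1 and of Gnas, which it overlaps, may include each other's reads because the strand setting is not given.

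Members of gene lists with roles in neuronal activity are given in turn. Over all tested genes 19% rose and 20.1% fell, and the members at peaks are few in each list. Of 18 immediate early genes, 3 held or lay nearest to a peak (Fos, Egr2 and Nr4a2) and all 3 rose, as did 16 of the 18. Of 20 delayed activity-response genes, 1 did: Homer1, a scaffold of the postsynapse, at 280.5, 221, 179 and 157 CPM in CTRL and 529, 573, 639.6 and 474 CPM in PTX (log2 difference 1.41, SE 0.18, adjusted p = 0.000168), while all 20 of the list rose. Its peak lay 477 bp from an internal start. Of 14 GABA-A receptor genes, 1 did: Gabra5, a subunit of extrasynaptic receptors in hippocampus, with a peak over an internal start, at 105, 79.4, 76.6 and 63.0 CPM in CTRL and 42.6, 36.8, 23.6 and 26.7 CPM in PTX (log2 difference -1.31, SE 0.21, adjusted p = 0.000694). Of the 13 tested in that list, 2 rose and 5 fell. Of 25 glutamate receptor genes only Grin2a, an NMDA receptor subunit, held peaks, and it was not called (92.1, 73.3, 78.0 and 76.8 CPM in CTRL and 78.5, 59.0, 69.3 and 69.4 CPM in PTX; log2 difference -0.20, SE 0.11, adjusted p = 0.17), although it passed when the replicate number was a block (adjusted p = 0.0167). In that list 3 rose and 15 fell of 24 tested.

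Among 28 Polycomb and histone modifier genes, 4 held a peak and all 4 rose, while in the whole list 10 rose and 7 fell. Of all tested genes 19% rose, and 4 genes are too few to read as a share. Kmt5a, the enzyme that adds the single methyl group to histone H4 that L3mbtl1 can bind, stood at 24.7, 22.8, 25.0 and 22.0 CPM in CTRL and 44.6, 35.4, 40.3 and 39.9 CPM in PTX (log2 difference 0.77, SE 0.09, adjusted p = 0.000145), with a peak 66 bp from an internal start. Dnmt1, the maintenance DNA methyltransferase, stood at 97.8, 101, 108 and 98.9 CPM in CTRL and 174, 197, 183 and 178 CPM in PTX (log2 difference 0.86, SE 0.07, adjusted p = 1.52e-05), with a peak over an internal start. Hdac9, a class IIa deacetylase, stood at 111, 140.4, 106 and 99.0 CPM in CTRL and 246, 315, 288 and 278 CPM in PTX (log2 difference 1.31, SE 0.12, adjusted p = 2.56e-05). Hdac4, of the same class, stood at 88.9, 84.5, 93.9 and 88.5 CPM in CTRL and 90.3, 114, 116 and 147 CPM in PTX (log2 difference 0.40, SE 0.13, adjusted p = 0.0338), with PTX library 1 near the CTRL level. The Hdac4 call was lost without any one of CTRL libraries 2, 3 and 4, with adjusted p of 0.00262 to 0.0725 over the alternatives. Of 10 MBT-domain genes only Sfmbt2 held a peak, and in that list 2 rose and 7 fell.

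Of 34 hippocampal transcription factors, 6 held a peak and 3 (Mef2d, Nfib and Sox4) were only the nearest coding gene to one, while 2 rose and 16 fell in the whole list. Of these 9, Bcl11a, Mef2a and Nfix fell and Sox11 rose, beside 39.2% of all tested genes called in either direction. Mef2a, a factor of activity-dependent synapse control, stood at 173, 142, 153 and 150.3 CPM in CTRL and 82.8, 79.2, 68.4 and 80.6 CPM in PTX (log2 difference -0.98, SE 0.09, adjusted p = 2.71e-05), with a peak 37 bp from an internal start. Nfix, a nuclear factor I protein, stood at 57.9, 46.0, 67.6 and 67.2 CPM in CTRL and 37.6, 35.7, 32.6 and 44.4 CPM in PTX (log2 difference -0.66, SE 0.14, adjusted p = 0.00401). Sox11, a factor of immature neurons, stood at 136, 94.9, 107 and 99.7 CPM in CTRL and 377, 231, 379 and 306 CPM in PTX (log2 difference 1.57, SE 0.18, adjusted p = 8.77e-05). The other 5 were not called, with adjusted p of 0.0588 for Meis2, 0.0606 for Nfib, 0.561 for Sox4, 0.596 for Mef2d and 0.615 for Nfia. Meis2 and Nfib passed with the replicate block (adjusted p = 0.000154 and 0.00162). Meis2 also passed with DESeq2, RLE scaling, no filter on low counts and without PTX library 1 or PTX library 2 (adjusted p of 0.000154 to 0.151 over the alternatives), and Nfib passed without CTRL library 2.

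Synaptic adhesion and scaffold genes at these peaks were Homer1 and Lrrtm1, which rose, and Nlgn2 and Shank3, which were not called (adjusted p = 0.256 and 0.475), 4 of 26 in the list, of which 5 rose and 9 fell. Of all tested genes, 39.2% were called. Lrrtm1, a leucine-rich adhesion protein, stood at 30.7, 21.1, 28.5 and 22.2 CPM in CTRL and 30.3, 34.7, 31.9 and 35.5 CPM in PTX (log2 difference 0.38, SE 0.13, adjusted p = 0.0443). Its call was lost without any one of CTRL libraries 2, 3 and 4, without PTX library 2 and with no filter on low counts (adjusted p of 0.00683 to 0.114 over the alternatives). Lrrtm1 lies inside Ctnna2, the neuronal alpha-catenin, and the same peak counts for both. Ctnna2 stood at 246, 223, 227 and 226 CPM in CTRL and 138, 119, 124 and 139.9 CPM in PTX (log2 difference -0.81, SE 0.08, adjusted p = 4.22e-05), the opposite direction. Among 20 cadherin, catenin and Wnt genes, Cdh6, a cadherin, also held a peak and rose (5.29, 6.55, 6.77 and 6.39 CPM in CTRL and 12.9, 14.6, 19.5 and 24.0 CPM in PTX; log2 difference 1.51, SE 0.20, adjusted p = 0.000237), and Axin2, an inhibitor and target of Wnt signalling, held 2 (17.8 and 14.4) and was not called (adjusted p = 0.128). In that list 3 rose and 5 fell of 19 tested. None of the 17 listed lncRNA and small RNA host genes held or lay nearest to one of these peaks.

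Genes with the highest scores or the most peaks did not share a direction. Gnas was not called (433, 479, 508 and 463 CPM in CTRL and 405, 472, 420.1 and 443 CPM in PTX; log2 difference -0.11, SE 0.08, adjusted p = 0.346), and its groups overlapped. Nfia, with 6 peaks, was not called either (54.9, 58.6, 77.7 and 88.6 CPM in CTRL and 50.1, 55.3, 66.2 and 81.6 CPM in PTX; log2 difference -0.14, SE 0.19, adjusted p = 0.615), and each of its 4 PTX libraries was below the CTRL library of the same number while the groups overlapped. Nr3c1 fell (131, 139, 145 and 131 CPM in CTRL and 95.0, 90.5, 91.7 and 102 CPM in PTX; log2 difference -0.52, SE 0.07, adjusted p = 0.000376). Ash2l was called lower by a narrow margin (95.4, 89.2, 83.8 and 77.4 CPM in CTRL and 65.4, 83.2, 67.2 and 66.0 CPM in PTX; log2 difference -0.29, SE 0.10, adjusted p = 0.0495), and the call was lost without any one of CTRL libraries 1, 2 and 3 and PTX libraries 1, 3 and 4, and with DESeq2, RLE scaling or no filter on low counts (adjusted p of 0.00645 to 0.182 over the alternatives). Mon2, next to Mirlet7i, rose (102, 96.1, 97.9 and 93.2 CPM in CTRL and 160.5, 122, 151 and 138 CPM in PTX; log2 difference 0.56, SE 0.09, adjusted p = 0.00105), and Foxj2 was not called (adjusted p = 0.498). Hjv had 3 counts in CTRL and 0 in PTX and was not tested.

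Among the genes with most peaks, Ptch1 fell (35.8, 32.6, 33.7 and 39.2 CPM in CTRL and 19.3, 16.2, 23.6 and 23.5 CPM in PTX; log2 difference -0.77, SE 0.13, adjusted p = 0.00125), as did Tenm3, a synaptic teneurin (237, 223, 227 and 244 CPM in CTRL and 157, 194, 177 and 186 CPM in PTX; log2 difference -0.37, SE 0.08, adjusted p = 0.00555). Aff1, a subunit of the super elongation complex, rose (16.5, 18.8, 20.2 and 24.0 CPM in CTRL and 47.2, 34.0, 41.9 and 47.4 CPM in PTX; log2 difference 1.11, SE 0.14, adjusted p = 0.000201), as did Epc1, a subunit of the NuA4 acetyltransferase complex (71.4, 72.0, 73.3 and 67.5 CPM in CTRL and 94.8, 82.9, 102 and 93.0 CPM in PTX; log2 difference 0.40, SE 0.08, adjusted p = 0.00375). Nrg1, a ligand of ErbB receptors, was called higher (5.18, 6.61, 7.32 and 9.84 CPM in CTRL and 8.77, 9.80, 11.7 and 14.2 CPM in PTX; log2 difference 0.63, SE 0.22, adjusted p = 0.0439), with groups that overlapped. Its call was lost without any one of CTRL libraries 1, 2 and 3 and PTX libraries 2, 3 and 4 (adjusted p of 0.000315 to 0.117 over the alternatives). Mxi1 (55.5, 82.6, 76.7 and 73.1 CPM in CTRL and 66.9, 57.4, 54.9 and 60.1 CPM in PTX; log2 difference -0.26, SE 0.12, adjusted p = 0.124) and Tmpo, a lamina-associated protein (79.2, 110.3, 117 and 117 CPM in CTRL and 84.7, 110.3, 121 and 123 CPM in PTX; log2 difference 0.07, SE 0.15, adjusted p = 0.772), were not called, although Mxi1 passed without CTRL library 1.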

How the data were processed

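The peak list was deposited by the authors as 1 list for all ChIP-seq samples, with a score per peak with its meaning not given in the sources used here, likewise the peak caller, the reproducibility threshold and the use of the knockout samples. RNA-seq values were unnormalized read counts for Ensembl genes, as deposited by the authors in a separate file for each library. The tools named, per the submitters' processing notes, were Bowtie2 2.2.4, HTSeq 0.6.1, TopHat2 2.0.9 and CASAVA 1.8, and the build was mm10. The strand setting is not given in the sources used here. Summary lines of the tables entered neither tests nor library sizes; 19.9% to 26.8% of counted alignments lay in no gene and 15.2% to 20.5% at non-unique positions.

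Peaks were set against RefSeq gene positions and start windows with an overlap of at least 1 bp; positions are 1-based. Of 43629 gene identifiers, 42462 had a symbol and 32887 a RefSeq position. Counts were fitted with edgeR 4.0.16 in R 4.3.3 (filterByExpr, TMM scaling, a quasi-likelihood F test of PTX over CTRL with no other term), a script that was tested on simulated data. DESeq2 1.42.0, edgeR with RLE scaling, no filter, a replicate block, other windows, higher scores and leaving out each library were alternatives. The series' design text calls the cultures biological replicates. Same-numbered CTRL and PTX libraries deviated together from their group means (r = 0.770, 0.566, 0.153 and 0.608), which comes from the data and not from the labels; blocked values are given where they change a call.

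Named genes were those of the 10 peaks of highest score, the widest, farthest and limit peaks, the 8 (host), 5 (nearest) and 5 (noncoding) called genes of largest change, the first 2 sets restricted to non-overlapping groups with a mean of 1 CPM or more, the 5 noncoding genes of highest CTRL level, the 8 genes with most peaks, and the list members at peaks; others are said to be chosen later. Some items that the rule names are not reported here. The members and lists were chosen with earlier results of these data known. No genome was used, so the planned sequence analysis of peaks was not run; the comparison of start windows, the 500 bp distance and 4 of the motifs (core promoter, GC box, ETS and NRF1) were added after seeing the data.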

Additional observations from a re-analysis of the deposited data

Results flagged for a closer look

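In 4 of 142 groups of 4 libraries checked over the named genes, 1 library stood apart from the other 3 by a gap over range above the critical value of Dixon's test; chance gives about 1 in 20 groups. Ash2l was at 83.2 CPM in PTX library 2 against 65.4 to 67.2 in the other PTX libraries. Ctnna2 was at 246 CPM in CTRL library 1 against 223 to 227. Dleu2 was at 41.8 CPM in CTRL library 4 against 33.7 to 34.3. Tmpo was at 79.2 CPM in CTRL library 1 against 110.3 to 117.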

How the results depend on the processing

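The number of peaks away from coding gene ends depends on the window: 1446 at 500 bp, 975 at 1000 bp, 471 at 5000 bp and 327 at 10000 bp, and 310 with peaks at or above the median score only. With windows of 1000 and 5000 bp, 79.9% and 69.4% lay inside a coding gene and the median distance to a coding gene end was 4724 and 20426 bp. With peaks at or above the median score, the median width was 906.5 bp, the median score 13.5, and 43.1% lay at a coding start. That share was 16.6%, 32.8%, 42.6% and 46.7% for starts within 0, 250, 1000 and 2000 bp, distances chosen after seeing the data. Called host genes numbered 134 of 233 tested (57.5%) at 5000 bp and 105 of 194 (54.1%) at higher scores. At higher scores 21 of 52 nearest genes (40.4%) and 9 of 25 noncoding genes (36%) were called, beside 39.2% of all tested genes. With DESeq2, 35% of 80 noncoding genes were called, beside 31.5% of all genes. Without the filter on low counts it was 28.1% of 89, beside 20.9%. With the replicate block, 8820 of all tested genes (55.3%) and 286 host genes were called, including all 218 of the fit without it. Leaving out 1 library gave 185 to 214 called host genes, 48 to 57 nearest genes, 20 to 26 noncoding genes and 5119 to 6229 genes in all. Of 55 named genes with a call, 50 kept it in every alternative and none changed sign. The block changed the call of Grin2a, Meis2 and Nfib and of no other named gene. Peaks have no value per sample, so no peak count carries an error, and the depth of the ChIP-seq is not known from the list.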
